A study of Mus musculus with 10 samples.

Results

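Metabotropic glutamate receptors are G protein-coupled receptors for glutamate, the main excitatory transmitter of the cortex. The genes described are Grm2, Grm3, Grm4, Grm5, Grm7 and Grm8, taken by their symbols from the normalized table, and they are 6 of the 48526 genes in the raw count table and of the 21862 in the normalized one. They are not the whole family. The family is divided into 3 groups by sequence and coupling. Group I receptors such as Grm5 couple through Gq to phospholipase C and sit mostly at postsynaptic sites, where Homer proteins bind them. Group II (Grm2 and Grm3) and group III (Grm4, Grm7 and Grm8) couple to Gi and Go, lower cyclic AMP and, at presynaptic sites, act as autoreceptors that reduce transmitter release.

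The RNA came from wild-type cortical neurons of E16.5 C57BL/6J mouse embryos, cultured and given 0.5 µM AraC, which limits dividing cells. All 4 groups received a lentivirus, either a control virus or one that expresses the histone variant H2BE from a constitutive promoter, and each virus was followed by no stimulation or by BDNF, a neurotrophin that signals through TrkB. The groups are named Control (control virus), BDNF (control virus and BDNF), H2BE (H2BE virus) and H2BE+BDNF (H2BE virus and BDNF), and RNA was taken 24 h after stimulation. The labels state neither the dose of BDNF nor whether replicates were separate cultures, so p-values measure the spread between these samples, which may be technical.

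The 10 polyA libraries held 5058074 to 14142545 counts, of which 2478 to 5992 per library fell on the 6 receptor genes. Control replicate 3 and BDNF replicate 3 exceeded replicate 1 of their group at 0 of 48526 genes. They held 73.7% and 61.9% of the counts of that replicate, so each was treated as a subset of it. Levels average replicates 1 and 3 of those groups as 1 sample, tests use 8 distinct libraries, and every group has n = 2. H2bc21, the gene for H2BE, had mean levels of 5.28 CPM in Control, 3.99 in BDNF, 39.2 in H2BE and 33.6 in H2BE+BDNF (CPM: counts scaled by library size and TMM factor). The 5 general neuronal markers summed to 4797 to 5465 CPM per sample. Markers of other cells were present at lower sums. The 10 astrocyte markers summed to 388 to 489 CPM, the 10 oligodendrocyte lineage markers to 43.4 to 87.5 CPM, and the 8 endothelial, mural and fibroblast markers to 47.1 to 72.5 CPM. No listed marker was without counts, but S100b, Sox10, Mag, Mobp, P2ry12, Tmem119, Cldn5 and Kdr stayed under 1 CPM in every sample.

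On the mouse build GRCm38 (mm10), GENCODE M21 places the protein-coding genes Grm5 at chr7:87584168-88134907 (+ strand), Grm2 at chr9:106643095-106656082 (-), Grm3 at chr5:9485541-9725170 (-), Grm4 at chr17:27422387-27521403 (-), Grm7 at chr6:110645581-111567230 (+) and Grm8 at chr6:27275119-28135178 (-). Whether counting used strand was not stated. The antisense gene Gm28111 covers 470 bases of Grm2 exons and had 7 counts over the 10 libraries, against 3.45% of the Grm7 counts for Gm20387, which covers 130 bases of Grm7 exons.

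RefSeq promoter sequences on GRCm38.p6 matched 4 of the 6 genes, Grm2, Grm3, Grm7 and Grm8, which are also the 4 called in both BDNF comparisons below. They are shown because they had an entry, while Grm4 and Grm5 had none. In those comparisons Grm2 and Grm3 moved one way and Grm7 and Grm8 the other. Grm7 had 2 RefSeq windows and Grm8 had 3, of which only the most upstream is shown and searched, while Grm2 and Grm3 had 1 each. Each line gives up to 250 bases upstream of the start, 5′ to 3′ on the strand of the gene, with motif matches in capitals. The positions are chr9:106656110-106656359 (-) for Grm2, chr5:9725353-9725602 (-) for Grm3, chr6:110645262-110645511 (+) for Grm7 and chr6:28135179-28135396 (-) for Grm8. For Grm8, 32 bases inside the GENCODE gene were removed, leaving 218.
Grm2: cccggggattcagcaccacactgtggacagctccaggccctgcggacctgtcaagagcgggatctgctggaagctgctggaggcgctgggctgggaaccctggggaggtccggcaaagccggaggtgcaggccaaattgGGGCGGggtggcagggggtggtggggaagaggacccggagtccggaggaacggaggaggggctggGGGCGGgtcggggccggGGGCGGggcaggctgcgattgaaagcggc
Grm3: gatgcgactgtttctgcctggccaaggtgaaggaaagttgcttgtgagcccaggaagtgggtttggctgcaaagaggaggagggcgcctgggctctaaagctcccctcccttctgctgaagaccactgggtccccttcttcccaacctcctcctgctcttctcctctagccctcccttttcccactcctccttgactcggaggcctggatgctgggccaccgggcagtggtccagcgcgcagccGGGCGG
Grm7: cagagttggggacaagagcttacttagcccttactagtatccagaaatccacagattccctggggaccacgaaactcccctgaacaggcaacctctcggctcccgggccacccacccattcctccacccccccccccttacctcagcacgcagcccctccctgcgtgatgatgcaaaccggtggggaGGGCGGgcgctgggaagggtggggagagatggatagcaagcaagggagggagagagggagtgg
Grm8: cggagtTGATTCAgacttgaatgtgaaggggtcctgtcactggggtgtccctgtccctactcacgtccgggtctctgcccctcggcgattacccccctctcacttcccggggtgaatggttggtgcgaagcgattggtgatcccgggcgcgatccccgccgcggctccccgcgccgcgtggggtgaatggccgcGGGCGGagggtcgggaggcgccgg
The motifs searched on both strands were the cyclic AMP response element TGACGTCA, its shorter form TGACG, the AP-1 site TGANTCA, the EGR site GCGNGGGCG and the GC box GGGCGG. The GC box and the EGR site can share bases, and every full cyclic AMP element holds the shorter form. A GC box stood in all 4 sequences, with 3 in Grm2 and 1 in each of the others, and 32.7% of all 32851 RefSeq windows of 250 bases hold one. Grm8 also held 1 AP-1 match, which 6.75% of windows hold. None of the 4 sequences held the full cyclic AMP element (1.55% of windows), its shorter form (17.8%) or the EGR site (4.70%), which says only that those letters are not in these windows. G and C made up 71.2% of the Grm2 bases, 68.3% for Grm8, 62.4% for Grm3 and 62.0% for Grm7, against a median of 52.4% over all windows.

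All 6 genes passed the filter on low counts. Compared per kb of exon, Grm5 had the highest level of the 6 genes in every group, at 28.1 ± 2.71 CPM per kb (SD, n = 2) in Control, which ranked 1836 among 13415 tested genes with a length. Grm2 followed at 9.90 ± 0.356 CPM per kb and Grm3 at 8.33 ± 1.81, and these neighbours differed by less than the SD of Grm3. Grm7 stood at 5.80 ± 0.222, Grm8 at 2.61 ± 0.0767 and Grm4 at 2.25 ± 0.706 CPM per kb in Control, and the last 2 differed by less than the SD of Grm4. With BDNF the order was Grm5, Grm7, Grm3, Grm8, Grm4 and Grm2 under both viruses. Grm2 thereby went from the second to the last place, at 2.60 ± 1.06 CPM per kb in BDNF and 2.45 ± 0.117 in H2BE+BDNF. In BDNF it differed from Grm4, at 3.22 ± 0.155 CPM per kb, by less than the SD of Grm2, and in BDNF replicate 2 it was the higher of the pair (3.35 against 3.33). By rank Grm2 went from rank 4889 in Control to 9200 in BDNF among tested genes. Dividing by the longest transcript in place of all exons put Grm8 above Grm3 in both BDNF-treated groups and above Grm4 in H2BE.

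**Figure D1:**
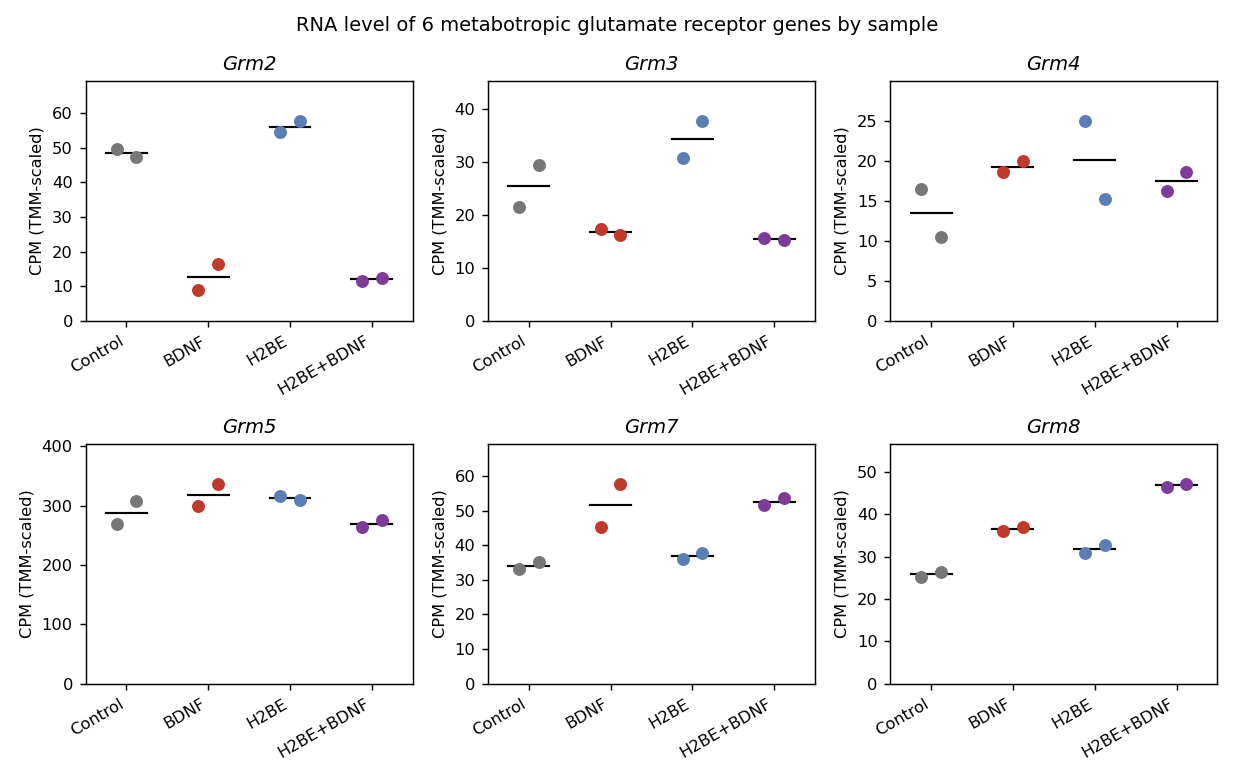
TMM-scaled CPM (vertical axis, from 0) of each receptor gene in the 4 groups (horizontal axis); points are samples, with replicates 1 and 3 of Control and of BDNF averaged, and bars are group means of n = 2. Grm2 lies between 47.2 and 57.7 CPM without BDNF and between 9.05 and 16.4 CPM with it, while Grm7 and Grm8 are higher with BDNF under either virus.

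The first question was how these receptors responded to BDNF under each virus. Grm2 and Grm3, the group II genes, fell under both viruses, Grm2 by 3.79-fold and 4.68-fold and Grm3 by less. Grm7 and Grm8 of group III rose by similar log2 amounts under both viruses. Grm4 did not pass the test under either virus, and Grm5 passed it under the H2BE virus, with a small fall, and not under the control virus. Tests are edgeR quasi-likelihood F tests over 13452 genes, called at a Benjamini-Hochberg adjusted p under 0.05. Of the 6 genes, 4 were called in BDNF against Control, 2 higher and 2 lower, where 31.4% of all tested genes were called (16.8% higher, 14.6% lower). In H2BE+BDNF against H2BE 5 of the 6 were called, 2 higher and 3 lower, where 25.8% of all tested genes were called (13.4% higher, 12.3% lower). The 6 genes had a median log2 fold change of 0.26 under the control virus and -0.24 under the H2BE virus, against -0.0098 and -7.1e-05 over all tested genes. In bulk RNA, fewer cells of a type and less RNA per cell cannot be told apart.

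Grm2, a presynaptic autoreceptor of glutamatergic terminals, had 49.7 and 47.2 CPM in the Control samples and 9.05 and 16.4 CPM in the BDNF samples. Under the H2BE virus it had 54.4 and 57.7 CPM without BDNF and 11.6 and 12.4 CPM with it. All 4 samples with BDNF were below all 4 without it. The log2 fold change was -1.92 ± 0.162 (SE) in BDNF against Control, 3.79-fold lower (edgeR adjusted p = 2.32e-07), the 34th most negative of 13452. In H2BE+BDNF against H2BE it was -2.23 ± 0.181, 4.68-fold lower (edgeR adjusted p = 2.70e-07), the 21st most negative.

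Grm3, the other group II receptor, is made by astrocytes as well as neurons. It had 21.5 and 29.3 CPM in Control and 17.2 and 16.2 CPM in BDNF. Under the H2BE virus it had 30.7 and 37.6 CPM without BDNF and 15.5 and 15.3 CPM with it. The samples with BDNF lay below those without it, and the 2 Control samples were far apart compared with the treated ones. The fall was -0.60 ± 0.147 on the log2 scale in BDNF against Control (edgeR adjusted p = 0.00539) and -1.14 ± 0.159 in H2BE+BDNF against H2BE (edgeR adjusted p = 6.92e-05). Without Control replicate 2, the BDNF change under the control virus was -0.41 with an edgeR adjusted p of 0.0628, and the range of adjusted p over 17 alternatives was 0.000223 to 0.0628. The astrocyte markers summed to 388 to 405 CPM in Control, 453 to 489 in BDNF, 476 to 476 in H2BE and 459 to 465 in H2BE+BDNF. Of 9 tested, 2 were higher, 0 lower and 7 not called in BDNF against Control, and 0 were higher, 1 lower and 8 not called in H2BE+BDNF against H2BE. Their part in the Grm3 result was not tested.

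Grm7, a group III receptor of presynaptic release sites with low affinity for glutamate, had 33.2 and 35.0 CPM in Control and 45.3 and 57.8 CPM in BDNF. It had 36.1 and 37.6 CPM in H2BE and 51.6 and 53.6 CPM in H2BE+BDNF. Every sample with BDNF was above every sample without it. The log2 fold change was 0.58 ± 0.107 under the control virus (edgeR adjusted p = 0.000588) and 0.51 ± 0.117 under the H2BE virus (edgeR adjusted p = 0.00432). Without H2BE replicate 2 the latter was 0.47 with an edgeR adjusted p of 0.0622, the highest of its alternatives, which began at 0.000179.

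Grm8, a further presynaptic group III receptor, had 25.2 and 26.3 CPM in Control and 36.0 and 36.9 CPM in BDNF. It had 30.7 and 32.7 CPM in H2BE and 46.4 and 47.2 CPM in H2BE+BDNF. Samples of 1 group stood close together and the 4 groups did not overlap. The log2 fold change was 0.51 ± 0.0921 under the control virus (edgeR adjusted p = 0.000551) and 0.56 ± 0.0971 under the H2BE virus (edgeR adjusted p = 0.000479).

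Grm4, the third group III receptor, varied between samples of a group in Control and in H2BE. Its samples had 16.4 and 10.5 CPM in Control, 18.6 and 19.9 in BDNF, 24.95 and 15.3 in H2BE, and 16.3 and 18.6 in H2BE+BDNF. The H2BE samples spanned those of H2BE+BDNF, while the BDNF samples lay above both Control samples. The log2 fold change was 0.41 (95% interval -0.0015 to 0.83, edgeR adjusted p = 0.123) in BDNF against Control and -0.25 (-0.70 to 0.20, edgeR adjusted p = 0.425) in H2BE+BDNF against H2BE. Without Control replicate 1 the former was 0.87 with an edgeR adjusted p of 0.0297, and over all its alternatives the adjusted p ran from 0.0297 to 0.515. Without H2BE replicate 2 the latter was 0.18.

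Grm5, the postsynaptic group I receptor, had 268 and 308 CPM in Control and 299 and 337 CPM in BDNF. It had 316 and 310 CPM in H2BE and 264 and 275 CPM in H2BE+BDNF. The Control and BDNF samples overlapped, and the H2BE+BDNF samples lay below the H2BE samples. The log2 fold change was 0.11 (95% interval -0.031 to 0.26, edgeR adjusted p = 0.228) under the control virus and -0.22 ± 0.0702 under the H2BE virus (edgeR adjusted p = 0.0281). The second call was lost on leaving out either H2BE library (edgeR adjusted p = 0.138 for replicate 2 and 0.0769 for replicate 3) or either H2BE+BDNF library (0.158 for replicate 2 and 0.0589 for replicate 3), and over all alternatives it ran from 0.00386 to 0.158. Leaving out BDNF replicate 1 gave 0.21 for the first, with an edgeR adjusted p of 0.0155 in a range of 0.0155 to 0.956.

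Averaged over both viruses, with 4 libraries a side, the BDNF log2 fold changes were -2.07 ± 0.121 for Grm2, -0.87 ± 0.108 for Grm3, 0.55 ± 0.0791 for Grm7 and 0.53 ± 0.0669 for Grm8. These 4 were called with edgeR adjusted p of 1.76e-09, 8.92e-06, 4.20e-05 and 9.48e-06, in a comparison where 40.4% of all tested genes were called. Grm4 was at 0.081 and Grm5 at -0.055, and neither was called. Sums of several marker lists also differed with BDNF, though in some lists few markers were called. Of the 5 general neuronal markers 1 was higher, 3 lower and 1 not called. Of 9 astrocyte markers tested 0 were higher, 1 lower and 8 not called. The 8 progenitor markers summed to 116 to 119 CPM in Control, 230 to 244 in BDNF, 106 to 108 in H2BE and 238 to 242 in H2BE+BDNF, and 5 of 8 were higher and 1 lower, Vim being the most abundant. The 8 microglia markers summed to 10.6 to 11.2, 24.1 to 24.9, 5.35 to 8.04 and 23.1 to 23.7 CPM in the same order, with 1 of 4 tested higher and the defining P2ry12 and Tmem119 under 1 CPM in every sample. The 8 excitatory neuron markers summed to 1144 to 1151, 939 to 1024, 1302 to 1315 and 1053 to 1089 CPM, with 1 of 8 higher and 5 lower. The 6 Cajal-Retzius markers summed to 1000 to 1118, 1045 to 1110, 1275 to 1294 and 971 to 1013 CPM, with 4 of 6 lower and 2 not called. Oligodendrocyte lineage sums were 43.4 to 46.3, 76.4 to 84.8, 47.2 to 51.5 and 84.1 to 87.5 CPM, with 1 of 7 tested higher. The part of these cells in the receptor results was not tested.

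**Figure D2:**
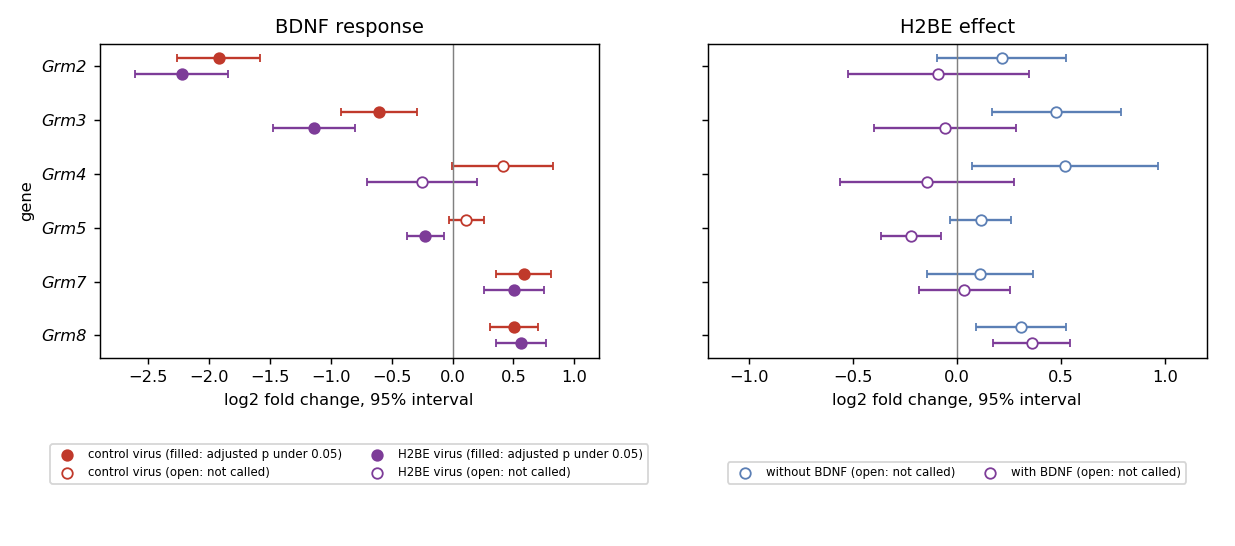
Log2 fold changes of the 6 genes (horizontal axis) with 95% intervals, for BDNF under each virus (left) and for the H2BE virus without and with BDNF (right); filled points have an edgeR adjusted p under 0.05. Grm2 and Grm3 lie left of 0 and Grm7 and Grm8 right of 0 in both BDNF comparisons, and no point on the right is filled.

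A separate term tested whether the BDNF response differed between the viruses. Of the 6 genes 0 were called by edgeR, against 1.15% of all tested genes, with 3 at an unadjusted p under 0.05 (Grm3, Grm4 and Grm5). DESeq2 also called 0, but gave 5 of the 6 no adjusted p. The smallest p was that of Grm5, whose response differed by -0.33 log2 units (H2BE virus minus control virus, 95% interval -0.54 to -0.13, edgeR adjusted p = 0.113, unadjusted 0.00346). Grm5 was called in 5 of 17 alternatives. Among these were no filter on low counts (edgeR adjusted p = 0.00885), all 10 libraries (0.0294), the replicate block (0.0362) and the replicate block on replicates 2 and 3 alone (0.0328). The other was the test without BDNF replicate 1, at -0.43, which left 1 BDNF library. The Grm5 difference ran from -0.43 to -0.24 when 1 library was left out. The difference was -0.54 for Grm3 (-1.0 to -0.076, edgeR adjusted p = 0.230) and -0.66 for Grm4 (-1.28 to -0.052, edgeR adjusted p = 0.258). For Grm2 it was -0.31 (-0.84 to 0.23), for Grm7 -0.076 (-0.41 to 0.26) and for Grm8 0.053 (-0.23 to 0.34). Without BDNF replicate 1 the Grm2 difference was -0.66, and without BDNF replicate 2 it was 0.18.

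The next question was what the H2BE virus did to the receptors by itself. No receptor was called by edgeR in H2BE against Control (0 of 6, 2.13% of all tested genes) or in H2BE+BDNF against BDNF (0 of 6, 0.0223% of all tested genes). At an unadjusted p under 0.05 there were 3 in the former (Grm3, Grm4 and Grm8) and 2 in the latter (Grm5 and Grm8). DESeq2 called 0 in both, and in the former gave 5 of the 6 no adjusted p. The 2 comparisons share no library, but they come from 1 fit with a shared spread. Both set H2BE-virus replicates 2 and 3 against control-virus replicates 1 and 2, so virus and replicate number are partly confounded. Grm8 had the higher values with the H2BE virus in both. Its 2 H2BE samples were above both Control samples and its 2 H2BE+BDNF samples above both BDNF samples, by 0.31 (95% interval 0.089 to 0.52, edgeR adjusted p = 0.122) and 0.36 (0.17 to 0.54, edgeR adjusted p = 0.164) log2 units. The 2 groups also did not overlap for Grm2, Grm3, Grm5 and Grm7 in H2BE against Control. In H2BE+BDNF against BDNF the same held for Grm3 and Grm5. With 2 samples a group such separation says little, and its share over all genes was not counted. Averaged over both treatments the Grm8 value was 0.33 ± 0.0673, with an edgeR adjusted p of 0.0647 (unadjusted 0.000153), and 0 of 6 receptors were called against 0.164% of all tested genes, with 1 at an unadjusted p under 0.05 and 0 called by DESeq2, which gave 5 no adjusted p. When 1 library was left out, this Grm8 value ran from 0.31 to 0.36.

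For Grm3 the H2BE samples, at 30.7 and 37.6 CPM, were above the Control samples, at 21.5 and 29.3, by 0.48 log2 units (95% interval 0.17 to 0.79, edgeR adjusted p = 0.0940). That value was 0.68 without Control replicate 2, and it ran from 0.21 to 0.68 when 1 library was left out. This comparison shares its Control samples with BDNF against Control. With BDNF present the Grm3 difference between the viruses was -0.060 (-0.40 to 0.28). Grm4 differed by 0.52 (0.070 to 0.97, edgeR adjusted p = 0.205) without BDNF and by -0.14 (-0.56 to 0.27) with it. Grm5 differed by 0.11 (-0.035 to 0.26) without BDNF and by -0.22 (-0.37 to -0.077, edgeR adjusted p = 0.255) with it. The second value ran from -0.32 to -0.13 when 1 library was left out. Grm2 and Grm7 had intervals that included 0 in both comparisons, with Grm2 at 0.22 (-0.095 to 0.53) and -0.090 (-0.53 to 0.34) and Grm7 at 0.11 (-0.15 to 0.37) and 0.034 (-0.19 to 0.25).

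Set against each other per kb of exon, the 6 genes changed in make-up with BDNF under both viruses. In total they overlapped between Control and BDNF samples, but were lower in H2BE+BDNF than in H2BE. Their summed level was 57.0 ± 3.76 CPM per kb in Control, 54.8 ± 5.18 in BDNF, 66.0 ± 0.873 in H2BE and 50.4 ± 1.43 in H2BE+BDNF. The group II genes held 32.0% ± 0.440 of that sum in Control, 14.8% ± 0.109 in BDNF, 34.3% ± 2.69 in H2BE and 14.9% ± 0.305 in H2BE+BDNF. The group III genes held 18.8% ± 1.95, 28.6% ± 0.444, 19.4% ± 1.50 and 32.9% ± 0.209 in the same order. Group III RNA was thus below group II RNA in every sample without BDNF and above it in every sample with BDNF. The ratio of group III to group II was 0.538 to 0.636 in Control, 1.92 to 1.95 in BDNF, 0.508 to 0.633 in H2BE and 2.16 to 2.25 in H2BE+BDNF. Divided by the longest transcript, its mean was 0.884, 2.93, 0.859 and 3.42. Grm5 alone held 49.3% of the sum in Control, 56.7% in BDNF, 46.2% in H2BE and 52.2% in H2BE+BDNF. These shares are fractions of 1 sum and were not tested separately.

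**Figure D3:**
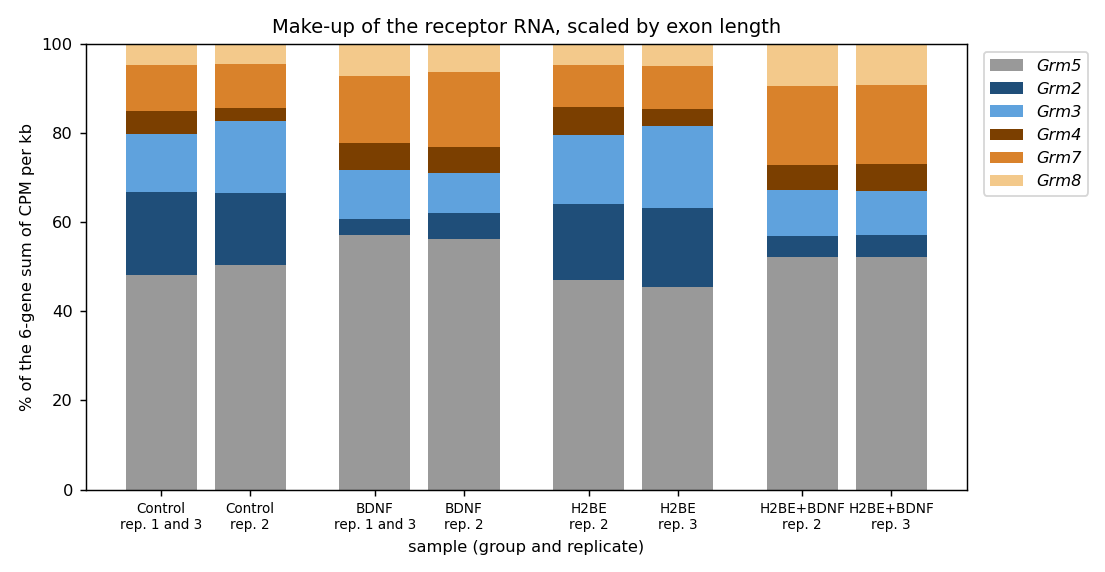
Share of each gene in the 6-gene sum of CPM per kb of exon (vertical axis, %) in each sample (horizontal axis), with group I in grey, group II in blue and group III in orange. The group II share falls from 32.0% in Control to 14.8% in BDNF and from 34.3% in H2BE to 14.9% in H2BE+BDNF, and the group III share is larger in the BDNF-treated samples.

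The genes that work with these receptors were followed through 5 lists, with BDNF averaged over both viruses and the median over all tested genes at -0.0025 log2 units. Of all tested genes 40.4% were called in that comparison, 21.1% higher and 19.3% lower. The Gi and Go arm, through which group II and III receptors signal, had 23 tested genes, of which 2 were higher, 15 lower and 6 not called, with a median of -0.22. The calcium-stimulated adenylyl cyclase Adcy1 fell from 1063 ± 73.0 CPM in Control to 812 ± 4.69 in BDNF and from 1265 ± 12.6 in H2BE to 728 ± 26.5 in H2BE+BDNF, a log2 change of -0.62. The G protein gamma subunits Gng7 and Gng2 fell, by -0.73 and -0.36, while another cyclase, Adcy8, rose by 0.54. In the Gq arm, through which group I receptors signal, 17 of 19 genes were tested, with 7 higher, 3 lower and 7 not called, and a median of 0.061. The protein kinase C genes Prkcb and Prkca rose by 0.85 and 0.35, Itpr1, an intracellular calcium release channel, by 0.62, and the diacylglycerol kinase Dgkb by 0.59.

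Of 21 binding partners and regulators 8 were higher, 5 lower and 8 not called, with a median of 0.037. Homer1, whose products bind Grm5 and include a short activity-induced form not told apart by gene counts, rose from 109 ± 3.14 CPM in Control to 182 ± 7.83 in BDNF and from 106 ± 0.901 in H2BE to 181 ± 1.33 in H2BE+BDNF, a log2 change of 0.75. The phosphatase subunit Ppp1cc rose by 0.58, and the receptor kinase Grk3 fell, by -0.61. Among 13 genes of glutamate supply and uptake 5 were higher, 4 lower and 4 not called, with a median of 0.10. The vesicular glutamate transporter Slc17a6 rose by 1.15, and the glutamine synthetase Glul fell by 0.44. Another vesicular glutamate transporter, Slc17a7, named after its value was seen, went the other way from Slc17a6. It was at -0.26 in BDNF against Control (edgeR adjusted p = 0.0240) and -0.24 in H2BE+BDNF against H2BE (edgeR adjusted p = 0.0494). The cystine-glutamate exchanger subunit Slc7a11 was called higher on average (0.87), with a log2 change of 1.67 in BDNF against Control (edgeR adjusted p = 2.96e-05) and of 0.075 in H2BE+BDNF against H2BE (edgeR adjusted p = 0.869).

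Of 12 other class C receptors, the family that also holds the GABA-B receptors, 6 were tested, 3 higher and 3 lower, with a median of 0.049. Grm6 stayed under 1 CPM in every sample. The orphan receptors Gpr158 and Gprc5b rose by 0.47 and 0.52. Gabbr2, a GABA-B subunit, was called higher on average (0.25), with a log2 change of 0.50 in BDNF against Control (edgeR adjusted p = 1.37e-05) and of 0.0016 in H2BE+BDNF against H2BE (edgeR adjusted p = 0.990). Lower genes included the other GABA-B subunit, Gabbr1, at -0.15, named after its value was seen. In H2BE against Control, 4 of the 80 tested genes of these lists were called, against 2.13% of all tested genes, all 4 higher: Gabbr2 (0.34), Adcy1 (0.23), the postsynaptic scaffold Shank1 (0.40) and the glutamate uptake transporter Slc1a2 (0.32), with edgeR adjusted p of 0.0136, 0.0262, 0.0107 and 0.0284. None of the 4 was called without Control replicate 1, without H2BE replicate 2 or with a length and GC correction. With the replicate block 2 of the 4 were called, without H2BE replicate 3 also 2, and without Control replicate 2 there were 3.

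**Figure D4:**
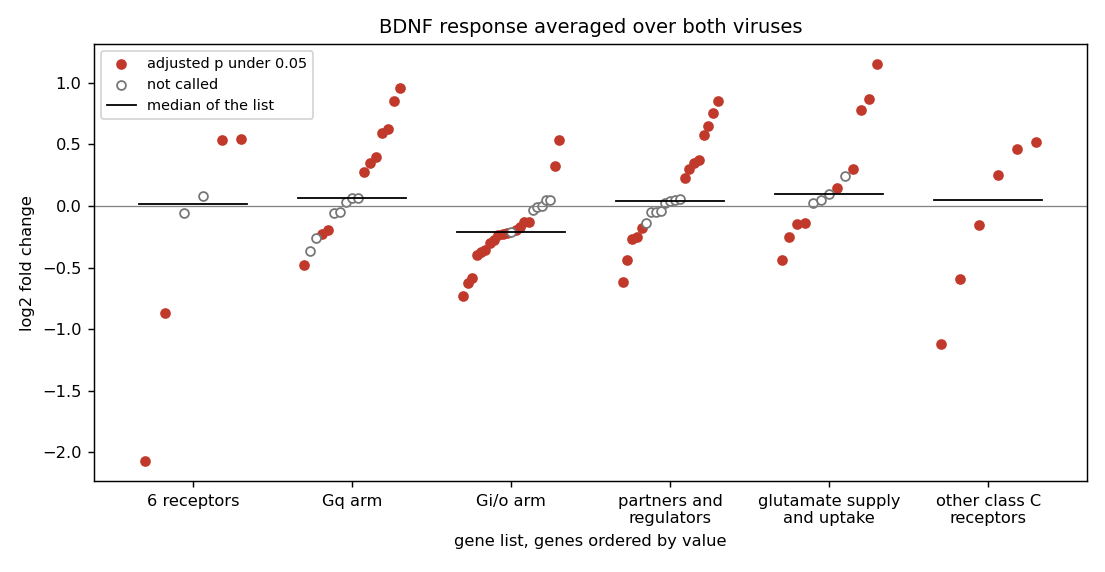
BDNF log2 fold change averaged over both viruses (vertical axis) for each tested gene of the 6 receptors and the 5 lists (horizontal axis, genes ordered by value within a list); filled points have an edgeR adjusted p under 0.05 and bars mark list medians. The Gi/o arm has its median at -0.22, and the other lists have medians of 0.037 to 0.10.

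The genes nearest to each receptor in pattern were taken as those with the smallest root mean square difference of centred log2 CPM over the 8 distinct libraries, among 10451 named genes that averaged 5 CPM or more. Nearest to Grm2 were Slc24a4, Pcsk2 and Vcan, at 0.175, 0.183 and 0.188 log2 units. Nearest to Grm3 were Zbtb16, Cntn5 and Ldb2, at 0.131 to 0.160, and nearest to Grm4 were Spag4, mt-Te and Tsen54, at 0.121 to 0.136. Grm5 was nearest to Pkp4, Kat6a and Atp2a2, at 0.0328 to 0.0400. Grm7 was nearest to Shroom3, Efl1 and Fam13c, at 0.0351 to 0.0661, and Grm8 to Ankrd39, Hnrnpf and the adenosine receptor Adora1, at 0.0700 to 0.108. Pearson r for these pairs was 0.917 to 0.995, all points sharing the same libraries and scaling. The pairs were picked for closeness in the same values, so a high r follows from the choice and is a description only.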

How the data were processed

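The authors deposited raw counts per Ensembl gene for 10 libraries, and a table of normalized counts (signal values: counts divided by 1 size factor per library, from the deposited values), which was used only for gene symbols. Per the submitters' processing notes the build was mm10 and SAMtools, DESeq2 and deepTools were used; how reads were aligned and counted, and with which gene models, is not given in the sources used here. Raw counts were tested with edgeR 4.0.16 in R 4.3.3 (TMM, filterByExpr with a minimum count of 10 and total of 15, quasi-likelihood F test, 1 mean per group, 8 distinct libraries, Benjamini-Hochberg over 13452 genes). Standard errors were taken from the fold change and F, and lengths from GENCODE M21. Depth was 5058074 to 14142545 counts per library. The members and lists were chosen with earlier results of these data known. All 6 receptors are named, with up to 4 genes per pathway list by smallest p in the averaged BDNF comparison, up to 2 per list called under H2BE, and the 3 genes nearest in pattern. Some listed genes that this rule picks are counted in their lists but not reported here by name. Alternatives were DESeq2 1.42.0, RLE scaling, no filter, other sets of libraries, a replicate block, a length and GC correction (lowess span 0.3), and leaving out each library. The fit was also run on counts simulated with its own estimate of spread, so that run cannot test this estimate. The 9 marker lists include interneurons, whose 9 markers summed to 2113 to 2290 CPM under the control virus and 1829 to 1968 under the H2BE virus. With H2BE averaged over both treatments, 0 of these 9 markers were higher, 1 lower and 8 not called.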

Additional observations from a re-analysis of the deposited data

Results flagged for a closer look

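Among the receptors' pathway lists, the BDNF response differed between the viruses for 4 of 80 tested genes by edgeR's test of the difference (H2BE virus minus control virus), which called 1.15% of all tested genes. The difference was -0.49 log2 units for Gabbr2 (edgeR adjusted p = 0.0245), whose mean levels were 202 CPM in Control, 295 in BDNF, 258 in H2BE and 260 in H2BE+BDNF. For Adcy1 it was -0.36 (edgeR adjusted p = 0.0339), and for Shank1 -0.56 (edgeR adjusted p = 0.0199). For the exchanger subunit Slc7a11 it was -1.59 (edgeR adjusted p = 0.0431), with mean levels of 3.49, 10.2, 5.04 and 5.36 CPM in the same order. None of the 4 was called without Control replicate 1, without H2BE replicate 2, without H2BE+BDNF replicate 3, with crossed replicate numbers or with a length and GC correction. Over all genes, 0 were called in the first, the second and the fourth of these, 1 without H2BE+BDNF replicate 3 and 5 with the correction. Of the 4, 1 was called without H2BE+BDNF replicate 2, 2 without H2BE replicate 3 and 3 without Control replicate 2 or with the replicate block on replicates 2 and 3 alone. Over the alternatives that gave an adjusted p, it ran up to 0.253 for Gabbr2, 0.783 for Adcy1, 0.291 for Shank1 and 0.338 for Slc7a11.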

How the results depend on the processing

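The BDNF calls of Grm2 and Grm8 under both viruses, and of Grm2, Grm3, Grm7 and Grm8 averaged over viruses, kept direction and call in all 17 alternatives. In BDNF against Control 3 to 5 receptors were called when 1 library was left out, in H2BE+BDNF against H2BE 3 to 5, in H2BE against Control 0 to 1, in H2BE+BDNF against BDNF 0 to 2, in the difference of the responses 0 to 2, and in the H2BE average 0 to 1. With all 10 libraries as separate replicates 2 were called in H2BE against Control (Grm3 and Grm8), 1 in H2BE+BDNF against BDNF (Grm8), 1 in the difference (Grm5) and 1 in the H2BE average (Grm8). Without a filter on low counts 1 was called in each of these 4. The tested libraries were replicates 1 and 2 under the control virus and 2 and 3 under the H2BE virus, so only number 2 was common to both. Shared numbers were not shown to pair samples: deviations of same-numbered libraries correlated at -0.170 (Control and BDNF) and -0.299 (H2BE and H2BE+BDNF). With the replicate block 1 receptor was called in H2BE+BDNF against BDNF and 1 in the difference (Grm5 in both, edgeR adjusted p = 0.0223 and 0.0362), 4 in BDNF against Control and 5 in H2BE+BDNF against H2BE; with the replicate block on replicates 2 and 3 alone 1 was called in the difference (Grm5). Crossing the numbers, an alternative chosen after seeing the data, gave 4 and 4 called receptors in the BDNF comparisons. Reversed values were all of uncalled results. With the replicate block they were Grm7 in H2BE against Control -0.051, Grm4 and Grm7 in H2BE+BDNF against BDNF 0.079 and -0.097, and Grm2 and Grm7 in the H2BE average -0.12 and -0.074. With all 10 libraries Grm2 in H2BE+BDNF against BDNF was 0.013. Leaving out 1 library at a time, Grm2 ran from -0.44 to 0.39 and Grm7 from -0.13 to 0.21 in H2BE+BDNF against BDNF, Grm2 from -0.66 to 0.18 and Grm7 from -0.24 to 0.10 in the difference, Grm4 from -0.53 to 0.18 in H2BE+BDNF against H2BE and from -0.056 to 0.31 in the BDNF average, and Grm2 from -0.12 to 0.30, Grm4 from -0.022 to 0.42 and Grm7 from -0.0099 to 0.16 in the H2BE average. Over all genes, the number called ran across alternatives from 2278 to 6465 in BDNF against Control (4225 as reported), 1818 to 4157 in H2BE+BDNF against H2BE (3466), 2 to 1611 in H2BE against Control (287), 1 to 764 in H2BE+BDNF against BDNF (3), 0 to 1169 in the difference (155) and 4 to 651 in the H2BE average (22). A group left with 1 library was assumed to vary like the others. The cause of these changes was not tested. Grm4 had 60 to 243 counts per library.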
